A study of Caenorhabditis elegans with 24 samples.

Results

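The question here was how the response of starved larvae to food that they were meant to perceive but not eat differed between 24 h and 1 h of exposure. The measure was the interaction of food with time. It is the log2 effect of food at 24 h (IvF minus IvS) minus that at 1 h. A positive interaction means that the food effect was higher at 24 h, and a negative one that it was lower. It used 16 of the 24 libraries of the series, those with ivermectin, and 18778 of 44968 gene identifiers, those above 1 CPM (counted reads scaled to a common library total) in at least 4 of the 16.

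All larvae were whole L1 animals of strain LRB269, which carries the alleles avr-14(vu47) and glc-3(ok321) together with avr-15(vu227) and glc-1(pk54). It also carries the transgene dukIs10, in which the myo-2 promoter drives avr-15 and mCherry and the hlh-8 promoter drives GFP. The 4 mutations affect glutamate-gated chloride channel subunits through which ivermectin acts, and the myo-2 promoter returns avr-15 to pharyngeal muscle, so the drug is meant to stop pumping and to spare other tissues. Embryos were placed in 5 ng/mL ivermectin, hatched without food and entered L1 arrest. IvF larvae then received E. coli HB101 at 25 mg/mL and were collected 24 h or 1 h later. IvS larvae stayed in ivermectin without food for the same times. Elsewhere in its methods the paper gives a higher ivermectin dose for LRB269, picked as the lowest at which growth showed no eating. Each of the 4 groups had 4 libraries. The 8 libraries without ivermectin, 4 of larvae fed HB101 for 1 h (F) and 4 of larvae kept without food (S), served only as a separate readout. The 24 h animals had also been without a meal for longer than the 1 h animals, in both IvF and IvS.

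In L1 arrest, larvae that hatch without food hold development until they eat. Insulin-like peptides released on feeding act through the receptor DAF-2 and the kinases PDK-1, AKT-1 and AKT-2 to keep the transcription factor DAF-16/FoxO out of the nucleus. Starvation lets DAF-16 turn on stress and arrest genes. The intestine of the worm absorbs food, stores fat and carries most of the enzymes that modify foreign compounds, among them cytochrome P450 enzymes and UDP-glucuronosyltransferases, which attach sugars to lipophilic molecules, and C-type lectins that are often regulated with infection and diet.

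The 16 libraries held between 14498061 and 19448998 counted reads. Reads that aligned outside every feature made up 4.39% to 11.3% of aligned reads, with the highest value in IvF at 24 h (library IF_24hr_186). Summed levels of the 7 intestinal markers, all of which were tested, lay at 602 to 801 CPM in IvF at 24 h and 574 to 700 CPM in IvS at 24 h, against 1800 to 2280 CPM in IvF at 1 h and 1320 to 2020 CPM in IvS at 1 h. Of these markers, only ges-1 and pept-1 were called for the interaction. Whole animals were sequenced, and CPM are shares of a library. Fewer cells of a type, less RNA per cell and more RNA from other cells therefore cannot be told apart. The labels do not state separate cultures, but the study calls the libraries biological replicates, and p-values measure the spread between these libraries.

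Genes were called at an adjusted p below 0.05 with an absolute log2 change above 0.5. For the interaction, 175 genes (0.932% of those tested) had a higher food effect at 24 h and 123 genes (0.655%) a lower one. At 24 h, 147 genes (0.783%) were higher and 52 (0.277%) lower in IvF than in IvS. At 1 h, 755 genes (4.02%) were higher and 543 (2.89%) lower in IvF than in IvS. The food effect was thus called for fewer genes at 24 h, 199 (1.06%) against 1298 (6.91%). At 24 h, 591 of the 755 genes higher at 1 h still had a positive estimate. Their median log2 change was 0.29 at 24 h and 1.16 at 1 h. Over the 543 genes lower at 1 h, the median was -0.16 at 24 h against -0.87 at 1 h. Across all genes tested, which are not independent replicates, the changes at 24 h and 1 h, which share no library, had a Pearson r of 0.39.

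Classes were set by the calls. A response was lost where it was called at 1 h, not at 24 h, and the interaction was called against it, and this held for 216 genes, 101 of which were higher and 115 lower in IvF at 1 h. It was kept where both times were called in 1 direction without an interaction call (65 genes, 51 higher and 14 lower), and gained where it was called at 24 h only, with the interaction (51 genes, 41 higher and 10 lower). It was reversed in 8 genes, weakened in 3, strengthened in 3, and 17 genes had an interaction call with neither time called. Most genes called at 1 time, 1072 of them, had no interaction call and are called unsettled, since a missing call at 24 h does not show that the food effect was absent, and a kept call does not show that it was equal.

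The kit kept no strand, so reads of overlapping genes cannot be told apart, and 90 of the 298 genes called for the interaction overlapped another annotated gene. Among those named below this held for ugt-37, D2063.1, ugt-25, ugt-21, cyp-37B1, cysl-2, acdh-12, mcm-3, mcm-4, hsp-17, akt-1, pdk-1, aakg-4, msra-1, clec-210, bigr-1, glo-3, T16G1.7, C29F7.1 and C06E4.3. Of the 298 genes, 166 were called in each of the 16 fits that left out 1 library.

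**Figure D1:**
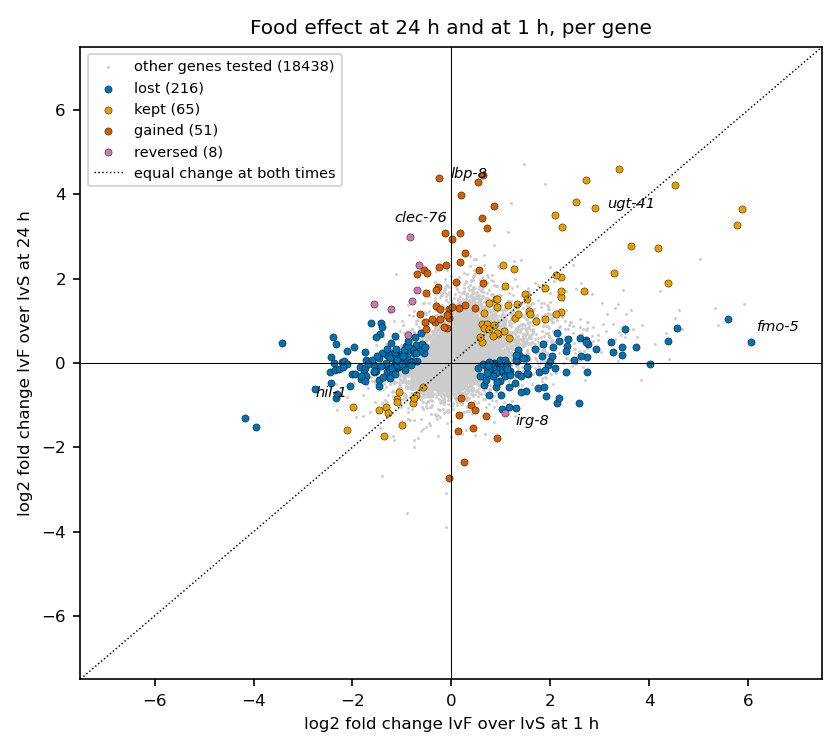
Log2 fold change of IvF over IvS at 24 h (vertical axis) against that at 1 h (horizontal axis) for the 18778 genes tested, 1 point per gene, coloured by class. The 216 lost genes lie along the horizontal axis, the 51 gained genes along the vertical axis, and 7 of the 8 reversed genes at upper left. The 65 kept genes lie at upper right or lower left, on either side of the dotted line of equal change.

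Where the levels moved can be read within each food condition. Of the 101 lost rises, 92 were lower at 24 h than at 1 h in IvF (background 7.26%), while in IvS 6 were lower (background 4.38%) and 11 higher (background 3.43%, and 7.82% in either direction). Of the 115 lost falls, 104 were higher at 24 h than at 1 h in IvF (background 5.68%), against 5 higher and 17 lower in IvS. These counts rest on the same libraries as the interaction and follow in part from the class rule. They describe the classes and are not evidence for them. Most lost genes were called between the times in larvae with food, and most were not called in larvae without food.

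Values per library are given in the order IF_24hr_181, IF_24hr_183, IF_24hr_185 and IF_24hr_186, and in the same order of label endings for the other groups, and ± is the standard error of a log2 value from the model, with n = 4 libraries per group. The short-chain dehydrogenase gene dhs-8, 1 of 5 called for the interaction among 30 dhs genes (3 higher and 2 lower at 24 h, 16.7% against 1.59% of all genes), stood at 5.74, 3.14, 4.83 and 6.61 CPM in IvF and 3.35, 2.87, 3.7 and 3.09 CPM in IvS at 24 h, against 114, 35.1, 26.9 and 78.7 CPM in IvF and 2.05, 3.07, 3.47 and 4.14 CPM in IvS at 1 h. All 4 IvF libraries lay above all IvS libraries at 1 h, and the groups overlapped at 24 h. The food effect on dhs-8 was 0.53 ± 0.44 at 24 h and 4.39 ± 0.45 at 1 h, an interaction of -3.86 ± 0.62 (adjusted p = 0.0042). The interaction was called in all 16 fits that left out 1 library.

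The flavin-containing monooxygenase gene fmo-5 had the lowest interaction of the named genes and the least even rise. It was at 34, 34.8, 37.1 and 32.3 CPM in IvF and 24.9, 20.3, 26.4 and 20.7 CPM in IvS at 24 h, against 2309, 169, 115 and 5758 CPM in IvF and 40.7, 25.8, 26.5 and 28.4 CPM in IvS at 1 h. Every IvF library lay above every IvS library at both times, but at 1 h libraries IF_1hr_181 and IF_1hr_186 exceeded the other 2 by over 10 times. The interaction was -5.56 ± 1.202 (adjusted p = 0.029) and was called in 3 of the 16 fits without 1 library. The same unevenness held for ugt-37, with 587, 76.5, 48 and 839 CPM in IvF at 1 h (interaction -4.56 ± 1.02, called in 2 of 16), for D2063.1 with 367, 74.6, 50 and 686 CPM (-3.72 ± 0.88, 2 of 16) and for the beta-lactamase-domain gene lact-5 with 178, 35.7, 37.5 and 215 CPM (-2.96 ± 0.69, 2 of 16). Their call thus depended on which libraries were in the fit.

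C18H9.6 differed from these in where its levels moved. It was at 60.9, 116, 65.9 and 117 CPM in IvF and 45.8, 79.3, 43 and 80.6 CPM in IvS at 24 h, against 348, 160, 108 and 205 CPM in IvF and 14.4, 16.1, 16.1 and 18.5 CPM in IvS at 1 h. The interaction of -3.36 ± 0.54 (adjusted p = 0.0035, called in 16 of 16) came with a change between the times of -1.32 in IvF and 2.04 in IvS, so its level without food was higher at 24 h in every library. The O-acyltransferase-like gene oac-6 was at 3.31 to 13.2 CPM in IvF larvae and 9.91 to 17.1 CPM in IvS larvae at 24 h, against 49.9 to 92 CPM in IvF larvae and 15 to 20 CPM in IvS larvae at 1 h, with an interaction of -3.08 ± 0.42 (adjusted p = 0.00073, called in 16 of 16).

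Among the UDP-glucuronosyltransferases, 9 of 67 tested were called for the interaction (13.4%, against 1.59% of all genes), 8 with a lower and 1 with a higher food effect at 24 h. At 24 h 11 members were higher and 2 lower in IvF than in IvS (19.4%, against 1.06% of all genes). At 1 h 30 were higher and 5 lower (52.2%, against 6.91%). The family median was 0.22 at 24 h and 0.45 at 1 h, with a median interaction of -0.37, against medians of -0.01, 0.04 and -0.02 over all genes. By class, 8 members lost the response, 10 kept it, 1 weakened and 18 were unsettled. Over all 18778 genes tested these classes held 216, 65, 3 and 1072. The count of interaction calls ranged from 5 to 12 when 1 library was left out and was 14 with DESeq2.

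ugt-25, a lost member, was at 11.8, 15.1, 15.5 and 12.9 CPM in IvF and 11.8, 10.7, 9.62 and 8.73 CPM in IvS at 24 h, against 83.8, 34.6, 28.6 and 67.2 CPM in IvF and 8.84, 5.13, 7.13 and 7.86 CPM in IvS at 1 h. Food raised it at 1 h in all 4 libraries by 2.94 ± 0.34, and the interaction was -2.60 ± 0.46 (adjusted p = 0.007). ugt-63 weakened: it was at 38, 43.9, 31.9 and 28.1 CPM in IvF and 6.57, 6.35, 5.8 and 5.46 CPM in IvS at 24 h, against 111, 114, 91.6 and 158 CPM in IvF and 2.24, 3.12, 3.33 and 6 CPM in IvS at 1 h. Its groups did not overlap at either time, and the effect was 2.47 ± 0.25 at 24 h and 5.03 ± 0.28 at 1 h (interaction -2.56 ± 0.35, adjusted p = 0.00073).

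Other members were called at both times without an interaction call. ugt-41 was at 206, 216, 156 and 237 CPM in IvF and 21.2, 15.7, 7.35 and 14.1 CPM in IvS at 24 h, against 56.1, 46.5, 31.8 and 98 CPM in IvF and 8.78, 7.35, 5.4 and 9.52 CPM in IvS at 1 h. The food effect on ugt-41 was 3.68 ± 0.35 at 24 h and 2.90 ± 0.35 at 1 h, and the interaction was not called (0.78 ± 0.46, adjusted p = 0.75). ugt-16 also kept the call at both times, 3.65 ± 0.41 at 24 h and 5.87 ± 0.44 at 1 h, but its interaction of -2.23 ± 0.54 had an adjusted p of 0.053, so keeping and weakening could not be told apart for it. ugt-34 stood at 3.27 ± 0.70 and 5.77 ± 0.67 at 24 h and 1 h, with an interaction of -2.50 ± 1.04 (adjusted p = 0.40). The family member that went the other way, ugt-43, named after its values were seen, was lower at 1 h (-1.44 ± 0.21), was not called at 24 h (0.70 ± 0.20, adjusted p = 0.17) and had an interaction of 2.13 ± 0.30 (adjusted p = 0.00072).

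**Figure D2:**
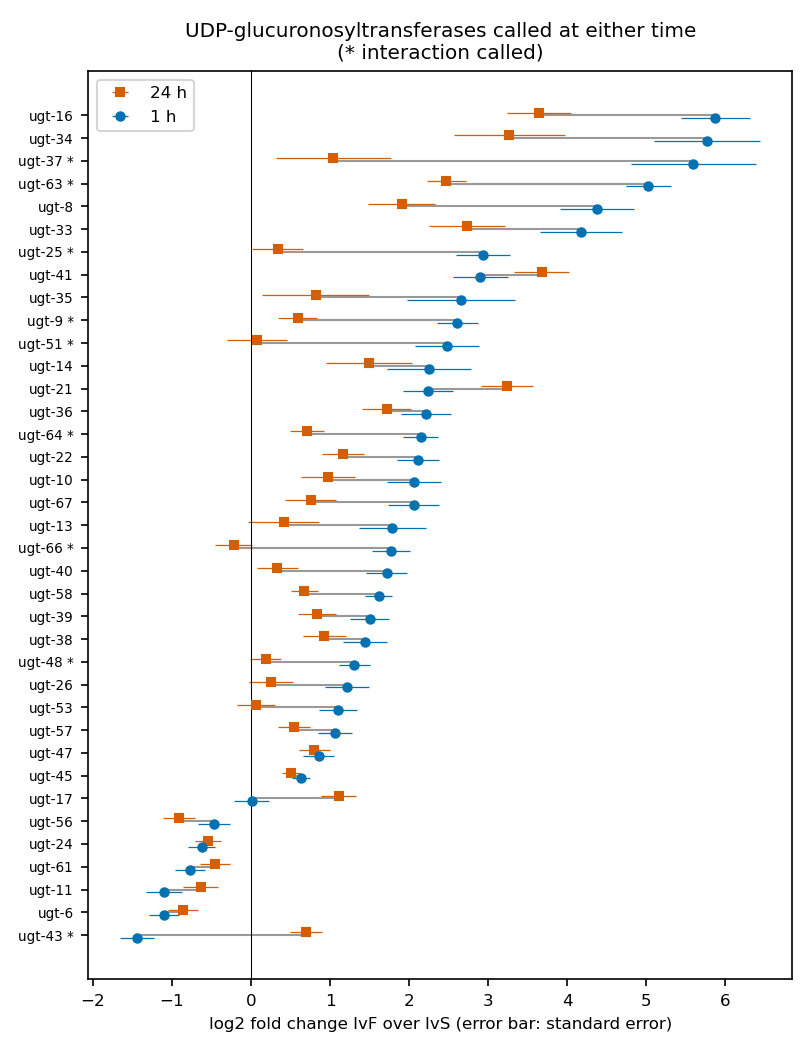
Log2 fold change of IvF over IvS at 24 h (squares) and 1 h (circles) for the 37 UDP-glucuronosyltransferase genes called at either time, with standard errors, and with stars for the 9 called for the interaction. The 24 h value lies to the left of the 1 h value for most members that rose at 1 h, and to its right only for ugt-41 and ugt-21 among the 30 that rose.

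Neighbouring responses in the other detoxification families were mixed. Among 74 cytochrome P450 genes, 2 had a higher and 1 a lower food effect at 24 h than at 1 h (4.05%, against 1.59% of all genes). In IvF against IvS, 2 were higher and 1 lower at 24 h (4.05%, against 1.06%), and 17 were higher and 5 lower at 1 h (29.7%, against 6.91%). Among 47 glutathione S-transferase genes, 2 had a higher food effect at 24 h (4.26%). Of these genes, 3 were higher and 2 lower at 24 h (10.6%), and 6 higher and 6 lower at 1 h (25.5%). The monooxygenase fmo-2, a stress-responsive relative of fmo-5, was at 38.4 to 71.6 CPM in IvF larvae and 18.3 to 39.1 CPM in IvS larvae at 24 h, against 5.6 to 28.8 CPM in IvF larvae and 40.7 to 56.4 CPM in IvS larvae at 1 h. It lost a fall (interaction 2.25 ± 0.48, adjusted p = 0.026), opposite in sign to fmo-5. The P450 gene cyp-37B1 was at 30.1, 22.5, 24.6 and 22 CPM in IvF and 17.8, 15.2, 16.8 and 11.6 CPM in IvS at 24 h, against 4.37, 5.2, 8.25 and 12.2 CPM in IvF and 36.8, 37.1, 38.4 and 40.1 CPM in IvS at 1 h. Its interaction was 3.00 ± 0.30 (adjusted p = 3.9e-05), and between the times it changed by 1.75 in IvF and by -1.25 in IvS.

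Genes of the hydrogen sulfide and hypoxia response lost a rise in 2 of 14 members (14.3%, against 1.59% of all genes called for the interaction), and 5 of the 14 were higher at 1 h (35.7%, against 6.91% called). cysl-2, a cysteine synthase-like enzyme that detoxifies cyanide, was at 28.3, 25.9, 23.1 and 42.1 CPM in IvF and 17.4, 24.8, 26.6 and 41 CPM in IvS at 24 h, against 32.3, 869, 670 and 520 CPM in IvF and 18.5, 30.3, 28.4 and 49.3 CPM in IvS at 1 h. In library IF_1hr_181 the IvF level at 1 h lay within the IvS range, and the other 3 libraries lay far above it. The interaction was -4.04 ± 0.86 (adjusted p = 0.027, called in 8 of 16). F22B5.4 was also lowest in library IF_1hr_181, with 7.87 CPM there, above every IvS library at 1 h, and 33.1 to 55.6 CPM in the other 3 (interaction -2.24 ± 0.52, adjusted p = 0.039, called in 4 of 16).

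Beta-oxidation genes, which break down fatty acids in mitochondria and peroxisomes, were called often at 1 h, but only 1 passed for the interaction. Of 41 tested, 16 were higher and 2 lower at 1 h (43.9%, against 6.91% of all genes). At 24 h, 1 was higher and 0 lower (2.44%, against 1.06%). Only hacd-1 was called for the interaction (2.44%, against 1.59%), opposite in sign to the list median, and 18 members stayed unsettled. In the same test, 21 of the 41 had an unadjusted interaction p below 0.05, against 1764 of all 18778 genes. The estimated food effect was lower at 24 h for 31 of the 41, against 9832 of all genes. The median change of the list was 0.13 at 24 h and 0.49 at 1 h, with a median interaction of -0.69. In the IvF libraries at 1 h, in the order above, the 16 genes had medians of 3.74, 1.12, 0.88 and 1.73 on the log2 scale relative to the IvS 1 h mean, and IF_1hr_181 was the highest for 15 of them. DESeq2 called 11 members for the interaction, and fits that left out 1 library called 0 to 7. Lipid breakdown was already a theme of the study on these libraries, so these counts are not independent evidence.

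cpt-1, the carnitine palmitoyltransferase that admits long-chain fatty acids to mitochondria, was at 289, 285, 272 and 262 CPM in IvF and 287, 225, 234 and 263 CPM in IvS at 24 h, against 2235, 597, 578 and 826 CPM in IvF and 282, 304, 317 and 344 CPM in IvS at 1 h. All IvF libraries exceeded all IvS libraries at 1 h, and the groups overlapped at 24 h. The interaction of -1.83 ± 0.54 did not pass (adjusted p = 0.13). Nor did the interaction pass for cpt-2 (-2.21 ± 0.77, adjusted p = 0.24), acdh-12 (-2.32 ± 0.84, adjusted p = 0.28), ech-1.1 (-2.66 ± 1.16, adjusted p = 0.45) and ech-1.2 (-1.87 ± 0.65, adjusted p = 0.24). For cpt-2 and ech-1.2 every IvF library still lay above every IvS library at 24 h, and for acdh-12 and ech-1.1 the groups overlapped. The thiolase gene acaa-2 was called at neither time, with 0.16 ± 0.31 at 24 h and 0.98 ± 0.32 at 1 h. The fatty acid synthase fasn-1 and the acyl-CoA synthetase acs-5 were higher at 1 h, by 0.73 ± 0.18 and 1.52 ± 0.36, with interactions of -0.69 ± 0.25 and -1.66 ± 0.50 that did not pass (adjusted p = 0.25 and 0.13). hacd-1, a hydroxyacyl-CoA dehydrogenase, went the other way, with 306 to 365 CPM in IvF larvae and 365 to 406 CPM in IvS larvae at 24 h, against 59.7 to 149 CPM in IvF larvae and 287 to 458 CPM in IvS larvae at 1 h. The interaction was 1.52 ± 0.36 (adjusted p = 0.044).

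**Figure D3:**
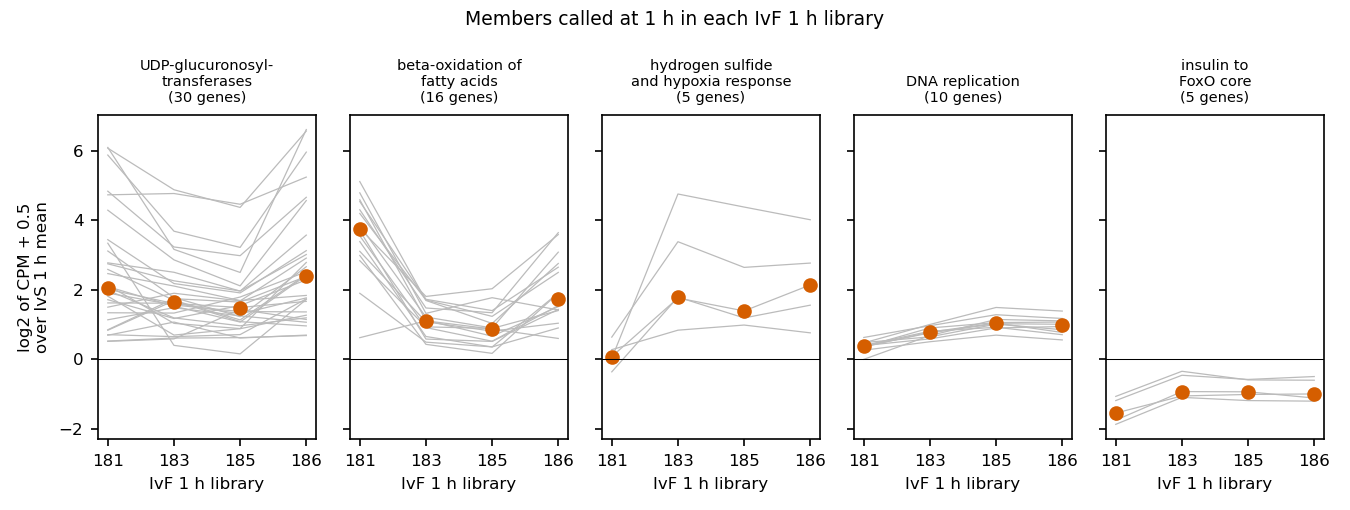
Members called at 1 h of 5 gene lists in the 4 IvF 1 h libraries, as log2 of CPM + 0.5 over the IvS 1 h mean. Grey lines join the values of 1 gene across libraries, which have no order, and points are medians. Library IF_1hr_181 holds the highest median of the beta-oxidation genes (3.74) and the lowest of the hydrogen sulfide and hypoxia genes (0.08).

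Of 28 cathepsin-type protease genes and 22 peptide and amino acid transporter genes, 1 each was called for the interaction (3.57% and 4.55%, against 1.59% of all genes). The gut cathepsin B-like protease gene cpr-4 was at 148, 131, 159 and 79 CPM in IvF and 88.6, 67.8, 136 and 78.9 CPM in IvS at 24 h, against 1001, 1002, 1023 and 504 CPM in IvF and 136, 120, 175 and 103 CPM in IvS at 1 h. The interaction of cpr-4 was -2.31 ± 0.44 (adjusted p = 0.01, called in 16 of 16). pept-1, the intestinal transporter of short peptides, was at 55.2, 98.6, 85.7 and 74 CPM in IvF and 65.7, 100, 84.9 and 92.4 CPM in IvS at 24 h, against 306, 334, 307 and 215 CPM in IvF and 107, 137, 143 and 144 CPM in IvS at 1 h. Its interaction was -1.41 ± 0.31 (adjusted p = 0.025, called in 11 of 16). Intestinal markers did not all move together between the times. From 1 h to 24 h, ges-1 was higher in IvF (log2 change 0.76 ± 0.16) and lower in IvS (-0.54 ± 0.16). As a sum, the intestinal markers given above were lower at 24 h in both food conditions. So were body wall muscle markers, with summed levels of 5270 to 6800 CPM in IvF larvae and 5700 to 7100 CPM in IvS larvae at 24 h, against 8860 to 11200 CPM in IvF larvae and 8980 to 12900 CPM in IvS larvae at 1 h. Pharyngeal muscle markers lay at 2240 to 4400 CPM in IvF larvae and 2410 to 3210 CPM in IvS larvae at 24 h, against 5030 to 6350 CPM in IvF larvae and 5140 to 6500 CPM in IvS larvae at 1 h. Neuron markers were higher at 24 h, with 2450 to 2800 CPM in IvF larvae and 2470 to 2870 CPM in IvS larvae, against 1800 to 2090 CPM in IvF larvae and 2120 to 2380 CPM in IvS larvae at 1 h. The part of these shifts in the values of cpr-4 and pept-1 was not tested.

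Of 16 genes of the methionine cycle and phosphocholine synthesis, 3 had a lower food effect at 24 h (18.8%, against 1.59% of all genes). The list had a median interaction of -0.60. At 1 h, 3 members were higher and 0 lower in IvF (18.8%, against 6.91%), and at 24 h 0 were called (against 1.06%). sams-1, which makes the methyl donor S-adenosylmethionine, was at 446 to 637 CPM in IvF larvae and 491 to 575 CPM in IvS larvae at 24 h, against 1061 to 1529 CPM in IvF larvae and 553 to 699 CPM in IvS larvae at 1 h. The interaction was -1.15 ± 0.27 (adjusted p = 0.041). The methionine synthase metr-1 had an interaction of -1.16 ± 0.27 (adjusted p = 0.034), and its reductase mtrr-1 one of -1.22 ± 0.29 (adjusted p = 0.044), with effects on mtrr-1 of -0.68 ± 0.21 at 24 h and 0.54 ± 0.21 at 1 h that were not called. These 3 calls were made in 4, 5 and 5 of the 16 fits that left out 1 library, and 0 members were called in the fit of all 24 libraries.

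Of 23 DNA replication genes, 10 were higher at 1 h (43.5%, against 6.91% of all genes called) and the other 13 were not called, and none was called at 24 h, where edgeR's quasi-likelihood test and DESeq2 both made 0 calls and 0 had an unadjusted p below 0.05. The helicase subunits mcm-3 and mcm-4 and the ribonucleotide reductase subunit rnr-1 were called for the interaction (13%, against 1.59% of all genes). mcm-3 was at 20.3, 27.9, 28.4 and 34.9 CPM in IvF and 23.1, 23.9, 25.8 and 28.8 CPM in IvS at 24 h, against 31.7, 46.3, 51.6 and 52.2 CPM in IvF and 24.5, 24, 27.5 and 22.1 CPM in IvS at 1 h. Its effect was 0.00 ± 0.13 at 24 h and 0.87 ± 0.13 at 1 h, an interaction of -0.87 ± 0.19 (adjusted p = 0.022). For mcm-4 the interaction was -0.73 ± 0.17 and for rnr-1 -0.80 ± 0.18 (adjusted p = 0.04 and 0.026). The number of interaction calls in the list ranged from 0 to 3 without 1 library, and was 6 with DESeq2 and 0 in the fit of all 24 libraries. The calls of mcm-3, mcm-4 and rnr-1 were made in 10, 4 and 9 of the 16 fits that left out 1 library. Among the IvF libraries at 1 h, IF_1hr_181 was the lowest for all 10 risen members. At 1 h the germline markers summed to 58.6 to 115 CPM in IvF larvae (median 98.3) and 68.2 to 80.6 CPM in IvS larvae (median 72.3), overlapping ranges. The tested embryo markers summed to 16 to 45.3 CPM in IvF larvae (median 34.6) and 13.9 to 20.8 CPM in IvS larvae (median 17). mex-5, a gene of the early embryo and germline, was higher in IvF at 1 h by 1.36 ± 0.30 (adjusted p = 0.0084), and its 9.92 CPM in IF_1hr_181 was the lowest of the IvF libraries. The part of these markers in the DNA replication values was not tested.

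The lost falls included akt-1, pdk-1 and ist-1 of the insulin pathway, which were lower in IvF than in IvS at 1 h. akt-1, the kinase that phosphorylates DAF-16, was at 281, 304, 255 and 280 CPM in IvF and 285, 300, 212 and 276 CPM in IvS at 24 h, against 76.8, 132, 124 and 122 CPM in IvF and 278, 282, 287 and 280 CPM in IvS at 1 h. At 1 h all IvF libraries lay below all IvS libraries, and at 24 h the 2 groups overlapped. The interaction was 1.27 ± 0.23 (adjusted p = 0.0067). pdk-1, which activates AKT kinases, was at 62, 58.9, 52.9 and 71.9 CPM in IvF and 78.3, 58.2, 61.5 and 58.1 CPM in IvS at 24 h, against 27.1, 38.2, 39.4 and 39.8 CPM in IvF and 66.7, 87.2, 78.3 and 87.3 CPM in IvS at 1 h, with an interaction of 0.98 ± 0.17 (adjusted p = 0.0049). ist-1, an insulin receptor substrate homolog, had an interaction of 1.096 ± 0.20 (adjusted p = 0.0073). All 3 were called in 16 of 16 fits without 1 library.

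Of the 10 core genes from receptor to FoxO, 5 were lower in IvF at 1 h (50%, against 6.91% of all genes called), and 3 of these had a higher food effect at 24 h (30% of the 10, against 1.59%). The remaining 2, the receptor daf-2 and akt-2, named after their values were seen, fell at 1 h by 0.63 and 0.66 and had estimates of 0.06 and -0.02 at 24 h without an interaction call. aakg-4, a regulatory gamma subunit of AMP-activated kinase, behaved like akt-1 in its levels: 77.9 to 108 CPM in IvF larvae and 89.6 to 117 CPM in IvS larvae at 24 h, against 20.8 to 33.4 CPM in IvF larvae and 90.6 to 115 CPM in IvS larvae at 1 h. The interaction was 1.52 ± 0.23 (adjusted p = 0.0013).

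Further lost falls had separate groups at 1 h and overlapping groups at 24 h. The linker histone variant hil-1 was at 282, 273, 225 and 281 CPM in IvF and 298, 312, 250 and 283 CPM in IvS at 24 h, against 32.3, 41.4, 32.8 and 36.1 CPM in IvF and 227, 193, 185.1 and 178 CPM in IvS at 1 h. The food effect on hil-1 was -0.22 ± 0.16 at 24 h and -2.45 ± 0.17 at 1 h, an interaction of 2.23 ± 0.23 (adjusted p = 4.5e-05). The metallothionein mtl-1 was at 43.7 to 55.6 CPM in IvF larvae and 40.1 to 56.6 CPM in IvS larvae at 24 h, against 14.2 to 24 CPM in IvF larvae and 50 to 60 CPM in IvS larvae at 1 h. The interaction was 1.57 ± 0.23 (adjusted p = 0.0013). F15A4.8, the gene with the highest interaction among named lost falls, was at 110, 115, 73.9 and 121 CPM in IvF and 95.8, 73.1, 50.3 and 58.6 CPM in IvS at 24 h, against 2, 5.46, 4.36 and 5.3 CPM in IvF and 71.3, 46.8, 38 and 24.4 CPM in IvS at 1 h. Its interaction was 3.91 ± 0.46 (adjusted p = 0.00021). The small heat shock gene hsp-17 lost a rise instead, at 30.4 to 36.9 CPM in IvF larvae and 37.7 to 58.7 CPM in IvS larvae at 24 h, against 41.4 to 68.7 CPM in IvF larvae and 22.9 to 25.1 CPM in IvS larvae at 1 h. The interaction was -1.73 ± 0.31 (adjusted p = 0.0064).

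Insulin-like peptides changed in both directions. daf-28, a peptide that promotes growth after hatching, was at 23.2, 29.6, 28.1 and 24.9 CPM in IvF and 32.8, 27.8, 32.7 and 26.4 CPM in IvS at 24 h, against 58, 47.1, 40.7 and 41.9 CPM in IvF and 24.4, 22.7, 19.8 and 21.9 CPM in IvS at 1 h. Its food effect was -0.27 ± 0.17 at 24 h and 1.12 ± 0.18 at 1 h (interaction -1.38 ± 0.25, adjusted p = 0.006). ins-24 was at 25.3, 31, 30.4 and 33.4 CPM in IvF and 18.3, 19.2, 21 and 23.5 CPM in IvS at 24 h, against 9.92, 9.67, 9.81 and 11.6 CPM in IvF and 17.3, 16.6, 15.7 and 17.5 CPM in IvS at 1 h. The IvF libraries lay below IvS at 1 h and above it at 24 h, where the estimate of 0.43 ± 0.12 did not pass (adjusted p = 0.12), and the interaction was 1.14 ± 0.17 (adjusted p = 0.0015).

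Of the other peptides, ins-30 was called at 24 h only, higher in IvF by 0.81 ± 0.18 (adjusted p = 0.032), without an interaction call (0.86 ± 0.25, adjusted p = 0.11), and was named after its values were seen. ins-6 was at 1.6 to 2.1 CPM in IvF larvae and 0.901 to 1.8 CPM in IvS larvae at 24 h, against 5 to 5.35 CPM in IvF larvae and 2.18 to 3.27 CPM in IvS larvae at 1 h, and its interaction was -0.47 ± 0.38 (adjusted p = 0.96). ins-5 had an interaction of 0.05 ± 0.34 and ins-12, at under 3 CPM in every library, one of 1.43 ± 0.75, and neither passed (adjusted p = 1 and 0.63). ins-4 was at 0 CPM in 1 IvS 24 h library and under 3 CPM in the rest. In the 30 peptide genes tested, 1 had a higher and 1 a lower food effect at 24 h (6.67%, against 1.59% of all genes).

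Genes that kept the response included members of 2 clusters of neighbouring names. T16G1.6 was at 43.7, 81, 61.7 and 61.3 CPM in IvF and 3.28, 2.08, 2.15 and 1.96 CPM in IvS at 24 h, against 47, 48.6, 42.1 and 159 CPM in IvF and 5.11, 7.67, 6.87 and 7.72 CPM in IvS at 1 h. The effect was 4.61 ± 0.39 at 24 h and 3.39 ± 0.36 at 1 h, with an interaction of 1.22 ± 0.50 (adjusted p = 0.38). T16G1.4, T16G1.5 and T16G1.7, which were picked after their values were seen, also kept a rise, with effects of 4.35 ± 0.42, 1.33 ± 0.24 and 1.53 ± 0.34 at 24 h. C29F7.2 was at 127 to 167 CPM in IvF larvae and 15.6 to 20.9 CPM in IvS larvae at 24 h, against 127 to 412 CPM in IvF larvae and 19.5 to 22.4 CPM in IvS larvae at 1 h, with an interaction of -0.85 ± 0.41 (adjusted p = 0.56), and its neighbours C29F7.1 and C29F7.3 kept a rise too.

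The C-type lectin clec-210 kept the response at lower levels: 17.7, 14, 14.4 and 17.1 CPM in IvF and 0.966, 0.169, 1.99 and 0.0594 CPM in IvS at 24 h, against 41.1, 6.57, 5.5 and 63.3 CPM in IvF and 1.06, 1.27, 0.733 and 2 CPM in IvS at 1 h. Its effect was 4.23 ± 0.84 at 24 h and 4.53 ± 0.80 at 1 h, with an interaction of -0.31 ± 1.19, whose error is large.

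The response strengthened in 3 genes, named because their class held few. pgp-1, a P-glycoprotein efflux transporter, was at 488, 460, 515 and 322 CPM in IvF and 31, 16.9, 29.6 and 12.9 CPM in IvS at 24 h, against 79.8, 55.8, 54.3 and 210 CPM in IvF and 34.1, 19.8, 28.5 and 21.7 CPM in IvS at 1 h. The groups were apart at both times. The interaction of pgp-1 was 2.37 ± 0.55 (adjusted p = 0.04, called in 4 of 16), that of glo-3, which is needed to form gut granules, 1.25 ± 0.29 (adjusted p = 0.035, 6 of 16) and that of bigr-1 1.96 ± 0.25 (adjusted p = 0.00031, 16 of 16).

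Gained responses were absent from the 1 h calls and mostly rose in food. pho-14, an acid phosphatase, was at 270, 221, 222 and 230 CPM in IvF and 16.2, 7.14, 14 and 8.49 CPM in IvS at 24 h, against 11.1, 7.41, 8.61 and 15.3 CPM in IvF and 9.15, 5.87, 6.73 and 7.52 CPM in IvS at 1 h. Only the IvF 24 h group stood apart, and the interaction was 3.76 ± 0.35 (adjusted p = 2.5e-05). lbp-8, a lipid-binding protein that carries a lysosomal lipid signal, was at 12.3, 29.2, 13.1 and 28.7 CPM in IvF and 1.16, 1.18, 0.553 and 0.653 CPM in IvS at 24 h, against 1.49, 0.368, 0.363 and 0.792 CPM in IvF and 0.996, 1.27, 0.933 and 0.483 CPM in IvS at 1 h. Its interaction was the highest of the named genes, 4.66 ± 0.67 (adjusted p = 0.0013).

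The neighbours C06E4.6 and C06E4.3 rose together at 24 h. C06E4.6 was at 25.5, 41.4, 39.5 and 23.4 CPM in IvF and 2.25, 0.674, 2.04 and 0.713 CPM in IvS at 24 h, against 3.03, 2.42, 4.31 and 4.75 CPM in IvF and 2.12, 2.12, 1.8 and 3.17 CPM in IvS at 1 h. The interaction was 3.81 ± 0.46 (adjusted p = 0.00025). C06E4.3 had an interaction of 3.78 ± 0.40 (adjusted p = 4.9e-05). The hydroxysteroid dehydrogenase-like gene stdh-2 was at 12.1 to 17.7 CPM in IvF larvae and 1.19 to 2.45 CPM in IvS larvae at 24 h, against 1.42 to 2.07 CPM in IvF larvae and 1.31 to 2.2 CPM in IvS larvae at 1 h. The interaction was 2.92 ± 0.37 (adjusted p = 0.00027). The P450 gene cyp-33B1 was at 22.1 to 33.3 CPM in IvF larvae and 2.21 to 4.16 CPM in IvS larvae at 24 h, against 1.8 to 3.72 CPM in IvF larvae and 2 to 2.97 CPM in IvS larvae at 1 h. The interaction was 2.91 ± 0.31 (adjusted p = 4.9e-05).

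ges-1, the gut esterase, also gained a rise. It was at 125, 111, 107 and 108 CPM in IvF and 54.7, 54.5, 57.6 and 50.5 CPM in IvS at 24 h, against 67.3, 64.5, 54 and 73.4 CPM in IvF and 96.7, 86.7, 78.7 and 68.1 CPM in IvS at 1 h. Its effect was 0.97 ± 0.16 at 24 h and -0.34 ± 0.16 at 1 h (interaction 1.30 ± 0.23, adjusted p = 0.0051). The hexosaminidase hex-1 and the lysosomal membrane protein gene lmp-2, chosen after their values were seen, had interactions of 1.15 ± 0.19 and 1.51 ± 0.27 (adjusted p = 0.0027 and 0.0063). hex-1 was at 72.2 to 86.2 CPM in IvF larvae and 25.2 to 31.8 CPM in IvS larvae at 24 h, against 28.7 to 36.9 CPM in IvF larvae and 26 to 34 CPM in IvS larvae at 1 h.

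C-type lectins were spread over the classes, with 3 lost, 2 kept, 2 gained and 2 reversed, against 216, 65, 51 and 8 of all 18778 genes. Of 206 tested, 4 had a higher and 3 a lower food effect at 24 h than at 1 h (3.4%, against 1.59% of all genes). In IvF against IvS, 7 were higher and 2 lower at 24 h (4.37%, against 1.06%), and 13 were higher and 4 lower at 1 h (8.25%, near the 6.91% of all genes). clec-76 reversed: it was at 68.8, 76.6, 52.5 and 52 CPM in IvF and 8.69, 7.14, 8.57 and 5.64 CPM in IvS at 24 h, against 13.1, 10.9, 13.7 and 18.3 CPM in IvF and 24.9, 26.1, 22.4 and 26.8 CPM in IvS at 1 h. The groups were apart at both times, in opposite order, with effects of 2.99 ± 0.19 at 24 h and -0.84 ± 0.18 at 1 h (interaction 3.83 ± 0.26, adjusted p = 5.8e-07). clec-75 showed the same order, at 29.7 to 42 CPM in IvF larvae and 8.49 to 11.7 CPM in IvS larvae at 24 h, against 7.66 to 17.6 CPM in IvF larvae and 16.6 to 18.7 CPM in IvS larvae at 1 h (interaction 2.43 ± 0.27, adjusted p = 7.4e-05), although its 1 h groups overlapped. clec-57 gained a rise (interaction 2.81 ± 0.27, adjusted p = 2.7e-05), though its 1 h effect of 0.62 ± 0.19 just missed the threshold (adjusted p = 0.051), and clec-41 a fall (-2.70 ± 0.55, adjusted p = 0.02).

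Of the remaining reversed genes, 5 were lower at 1 h and higher at 24 h. The ABC transporter gene mrp-3 was at 71.2, 79.2, 72.1 and 69.5 CPM in IvF and 49.6, 41.1, 42.7 and 39 CPM in IvS at 24 h, against 19.6, 25, 28.1 and 39.1 CPM in IvF and 52.1, 48.1, 47.3 and 53.7 CPM in IvS at 1 h. The interaction was 1.53 ± 0.20 (adjusted p = 0.0003). Y38C1AB.2 and F46G10.1 had interactions of 2.99 ± 0.25 and 2.26 ± 0.24 (adjusted p = 8.8e-06 and 4.9e-05), with overlapping 1 h groups in Y38C1AB.2. C23G10.11 and T22F3.11 had interactions of 2.98 ± 0.43 and 2.48 ± 0.39 (adjusted p = 0.0015 and 0.0024), and in both of them the 1 h groups overlapped through library I_1hr_186. T22F3.11 was at 999, 769, 772 and 767 CPM in IvF and 361, 269, 386 and 287 CPM in IvS at 24 h, against 277, 305, 422 and 365 CPM in IvF and 1276, 703, 779 and 358 CPM in IvS at 1 h.

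irg-8, a gene first known from infection, was the 1 reversed gene with a positive food effect at 1 h and a negative one at 24 h. It was at 10.8, 24.7, 22.8 and 19.2 CPM in IvF and 25.2, 43.7, 39.6 and 51.7 CPM in IvS at 24 h, against 101, 128, 102 and 117 CPM in IvF and 46.8, 56.6, 56.8 and 52.3 CPM in IvS at 1 h. The groups were apart at both times, and the effect was -1.18 ± 0.24 at 24 h and 1.09 ± 0.24 at 1 h (interaction -2.27 ± 0.34, adjusted p = 0.0014). Several lost genes leaned the same way without a 24 h call. The methionine sulfoxide reductase msra-1 was at 71.5, 154, 96.8 and 73.1 CPM in IvF and 151, 247, 203 and 172 CPM in IvS at 24 h, against 467, 547, 403 and 300 CPM in IvF and a mean of 178 ± 3.4 CPM in IvS at 1 h (SD, n = 4). Its 24 h effect of -1.06 ± 0.28 had an adjusted p of 0.095, and its interaction was -2.36 ± 0.39 (adjusted p = 0.0038). The folate transporter family gene folt-2 and the lectin clec-4 had 24 h effects of -1.03 ± 0.29 and -1.096 ± 0.29 and interactions of -2.20 ± 0.41 and -2.12 ± 0.39 (adjusted p = 0.0095 and 0.0081). Signs were opposite at the 2 times in 178 of the 298 genes called for the interaction, and in 170 of these not more than 1 time was called.

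**Figure D4:**
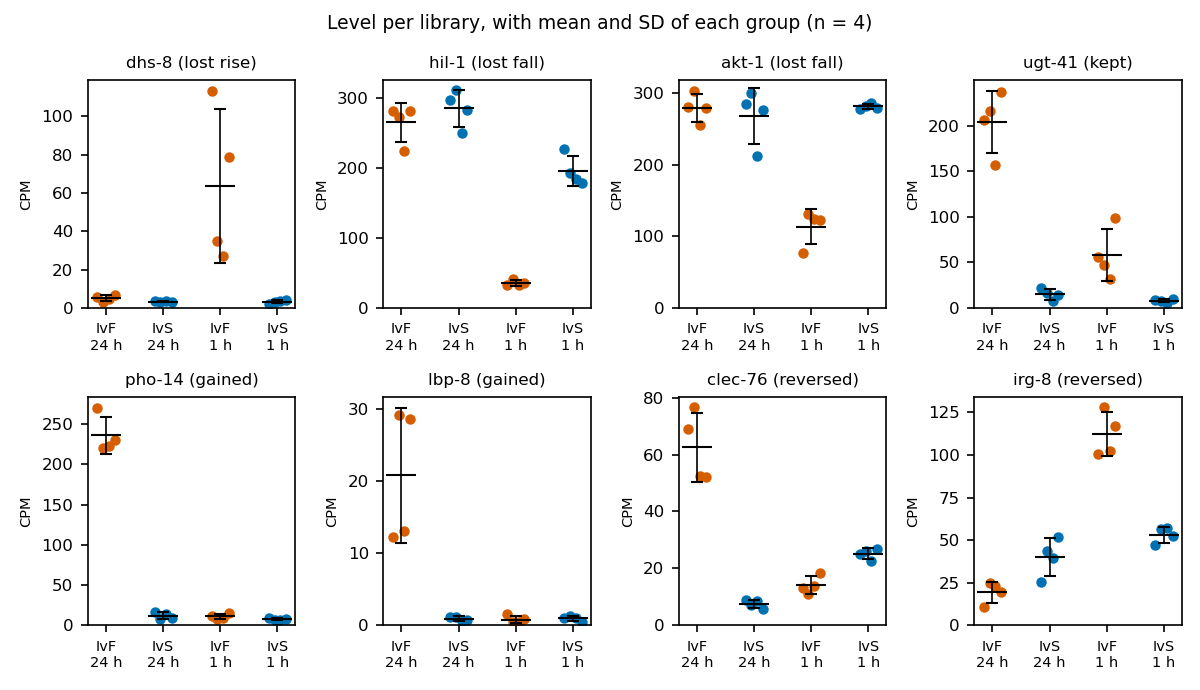
CPM in each library of 8 genes, 1 panel per gene with its own axis from 0, for IvF and IvS at 24 h and IvF and IvS at 1 h, with the mean and SD of the 4 libraries. dhs-8 is high only in IvF at 1 h, hil-1 and akt-1 are low only there, pho-14 and lbp-8 are high only in IvF at 24 h, ugt-41 is high in IvF at both times, and clec-76 and irg-8 change order.

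Of 51 gene lists, 28 had at least 1 member called for the interaction and 23 had 0. Among the 23 were the machinery of translation, protein turnover and respiration: over the cytosolic and mitochondrial ribosomal proteins, nucleolar ribosome biogenesis genes, aminoacyl-tRNA synthetases, proteasome subunits and respiratory chain, 0 of 284 genes were called for the interaction by the quasi-likelihood test, 9 had an unadjusted p below 0.05, and DESeq2 called 1. Over all genes tested, 298 of 18778 (1.59%) were called, 1764 had an unadjusted p below 0.05, and DESeq2 called 639. The count of 0 was below this share, but few calls were due in a set of 284 genes, and the difference was not tested. List medians of the interaction in these 6 lists lay between -0.20 and 0.08. Of these 284 genes, 1 was called at 1 h and 0 at 24 h, against 6.91% and 1.06% of all genes. Neuropeptide and guanylyl cyclase genes, which mark sensory and signalling neurons, also had 0 of 125 interaction calls, against 1.59% of all genes. Of the 125, 2 had an unadjusted p below 0.05 and DESeq2 called 1. The difference from all genes was not tested here either. None of the 125 was called at 1 h (against 6.91% of all genes), and 1 guanylyl cyclase gene was called at 24 h (against 1.06%). Nuclear hormone receptors, a large family of lipid-sensing transcription factors, had 4 higher and 2 lower interactions among 246 tested (2.44%, against 1.59% of all genes). At 1 h, 22 were higher and 11 lower (13.4%, against 6.91%). At 24 h, 5 were higher and 0 lower (2.03%, against 1.06%).

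The libraries without ivermectin, which the interaction did not use, give a separate reading of these classes, with F against S at 1 h. Of 14116 genes tested in both, 2231 (15.8%) were higher and 2138 (15.1%) lower in F than in S. Of the 101 genes that lost a rise, 72 (71.3%) were higher and 0 lower in F, with a median log2 change of 1.72. Of the 114 that lost a fall and could be tested, 107 (93.9%) were lower and 0 higher in F, with a median of -2.34. Of the genes that kept the response, 34 of 50 kept rises were higher and 12 of 14 kept falls lower in F. Unsettled genes called at 1 h also read this way, so it was not particular to the lost class. Of 592 unsettled rises, 346 (58.4%) were higher and 5 lower in F. Of 406 unsettled falls, 313 (77.1%) were lower and 1 higher.

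The gained genes read differently. Of 40 gained rises tested, 3 (7.5%) were higher and 9 (22.5%) lower in F than in S, with a median of -0.15, and of 10 gained falls 4 were higher and 0 lower. Among them, pho-14 was higher in F by 1.17 (adjusted p = 0.03), ges-1 was lower by 1.71 (log2 change -1.71, adjusted p = 0.00029), and lbp-8 was not called (0.18, adjusted p = 0.85). Of the 7 reversed genes that were lower at 1 h in IvF, 4 were lower in F. irg-8, higher at 1 h in IvF, was higher in F by 2.87 (adjusted p = 0.0008). hil-1 and akt-1, which lost a fall, were lower in F, with changes of -5.35 and -2.15 (adjusted p = 4.7e-05 and 5.7e-05). No 24 h libraries without ivermectin were analysed here, so these counts bear on the 1 h part of each class.

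**Figure D5:**
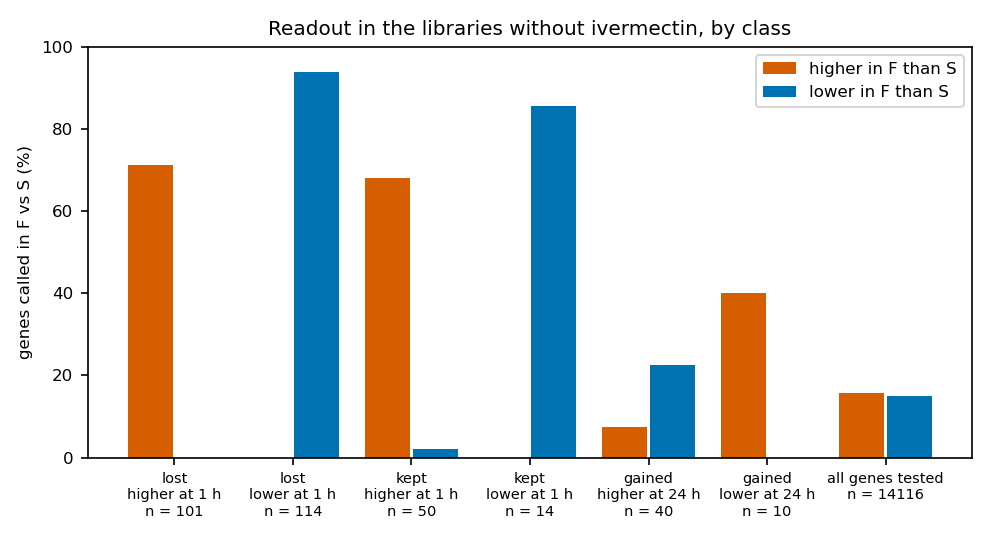
Share of the genes of each class called higher or lower in F than in S at 1 h without ivermectin (percent of the genes tested in both fits, with their number under each pair of bars), with all genes tested at right. Lost rises were higher in 71.3% and lost falls lower in 93.9%, against 15.8% and 15.1% of all genes, while gained rises were higher in 7.5%.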

How the data were processed

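RNA of whole L1 larvae was selected for poly(A) tails, made into non-directional libraries and sequenced. The authors aligned reads with Bowtie 1.1.2, as named in the submitters' processing notes, and deposited HTSeq counts per gene, raw and not normalized. The HTSeq version is not given in the sources used here. Lines naming no gene held 7.75% to 14.4% of aligned reads and were left out.

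Counts were scaled by TMM and fitted with edgeR 4.0.16 (limma 3.58.1, R 4.3.3) by quasi-likelihood over the 16 ivermectin libraries, with 1 term per group and genes above 1 CPM in at least 4 libraries. CPM were computed here from each library's total of counted reads, without TMM factors. P-values were adjusted by Benjamini and Hochberg over all genes, and calls needed an adjusted p below 0.05 and an absolute log2 change above 0.5. F and S were fitted separately. Identifiers were named from WBcel235, where 44439 of 44968 matched. Scripts were tested on simulated data.

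Genes came mainly from a set fixed by rule: among genes averaging 10 CPM or more in any group, the 12 highest and 12 lowest interactions, 6 kept genes, reversed genes, 4 others of opposite sign, up to 3 called members of each described list, and genes the study names. Not all genes of the set are described. Left out were, among others, lips-10 and F18E3.13 of the lowest interactions and tps-1, tps-2 and icl-1 of the study's genes. The comparison, 51 gene lists and 8 marker lists were chosen with earlier results of these data known. Alternatives were DESeq2 1.42.0 and its size factors, other filters and thresholds, a fit of all 24 libraries, a replicate block, a covariate and omission of libraries.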

Additional observations from a re-analysis of the deposited data

Results flagged for a closer look

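Among 184 groups of 4 libraries whose levels are given above, 1 library stood apart from the other 3 in 15 by Dixon's criterion, which chance alone meets in about 1 in 20 groups. These were C29F7.2 in library I_24hr_185 (15.6 CPM), T16G1.6 in library I_24hr_181 (3.28 CPM), T16G1.6 in library IF_1hr_186 (159 CPM), T22F3.11 in library IF_24hr_181 (999 CPM), aakg-4 in library IF_1hr_181 (20.8 CPM), cpr-4 in library IF_1hr_186 (504 CPM), cpt-1 in library IF_1hr_181 (2235 CPM), hex-1 in library I_1hr_181 (34 CPM), hil-1 in library IF_24hr_185 (225 CPM), ins-24 in library IF_1hr_186 (11.6 CPM), ins-6 in library IF_1hr_186 (5 CPM), pdk-1 in library I_24hr_181 (78.3 CPM), pdk-1 in library IF_1hr_181 (27.1 CPM), pgp-1 in library IF_1hr_186 (210 CPM) and stdh-2 in library IF_24hr_181 (17.7 CPM). No cause was tested.

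The food effect differed between 24 h and 1 h, by edgeR's interaction test, for 58 of the genes named in the report. Among genes that lost a rise, the interaction (log2, 24 h minus 1 h) was -3.36 for C18H9.6, -3.72 for D2063.1, -2.24 for F22B5.4, -2.12 for clec-4, -2.31 for cpr-4, -4.04 for cysl-2, -1.38 for daf-28, -3.86 for dhs-8, -5.56 for fmo-5, -2.20 for folt-2, -1.73 for hsp-17, -2.96 for lact-5, -0.87 for mcm-3, -0.73 for mcm-4, -1.16 for metr-1, -2.36 for msra-1, -3.08 for oac-6, -1.41 for pept-1, -0.80 for rnr-1, -1.15 for sams-1, -2.60 for ugt-25 and -4.56 for ugt-37. Among genes that lost a fall, the interaction (log2, 24 h minus 1 h) was 3.91 for F15A4.8, 1.52 for aakg-4, 1.27 for akt-1, 3.00 for cyp-37B1, 2.25 for fmo-2, 1.52 for hacd-1, 2.23 for hil-1, 1.14 for ins-24, 1.096 for ist-1, 1.57 for mtl-1, 0.98 for pdk-1 and 2.13 for ugt-43. Among gained genes, the interaction (log2, 24 h minus 1 h) was 3.78 for C06E4.3, 3.81 for C06E4.6, -2.70 for clec-41, 2.81 for clec-57, 2.91 for cyp-33B1, 1.30 for ges-1, 1.15 for hex-1, 4.66 for lbp-8, 1.51 for lmp-2, 3.76 for pho-14 and 2.92 for stdh-2. Among reversed genes, the interaction (log2, 24 h minus 1 h) was 2.98 for C23G10.11, 2.26 for F46G10.1, 2.48 for T22F3.11, 2.99 for Y38C1AB.2, 2.43 for clec-75, 3.83 for clec-76, -2.27 for irg-8 and 1.53 for mrp-3. Of the weakened genes, the interaction (log2, 24 h minus 1 h) was -2.56 for ugt-63. In the strengthened genes, the interaction (log2, 24 h minus 1 h) was 1.96 for bigr-1, 1.25 for glo-3 and 2.37 for pgp-1. With neither time called, the interaction (log2, 24 h minus 1 h) was -1.22 for mtrr-1.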

How the results depend on the processing

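The main counts were 298 genes for the interaction, 199 at 24 h and 1298 at 1 h. With all 24 libraries in 1 fit the interaction had 187 calls (59 lower) and 126 genes were lost. DESeq2 gave 639 interaction calls (330 higher, 309 lower), 346 at 24 h, and 453 lost, 110 kept, 92 gained and 18 reversed genes. Testing against the fold threshold with glmTreat gave 102 (64 higher, 38 lower), 461 at 1 h, 91 at 24 h, and 61 lost, 23 kept, 28 gained and 0 reversed genes. Without a filter 62 were lower, 128 lost and 5 reversed. A filter at an average of 5 CPM gave 685 (397 higher, 288 lower), 474 lost and 19 reversed, with fewer genes tested. With each library's share of reads outside every feature as covariate there were 670 (443 higher, 227 lower), 319 at 24 h, and 451 lost, 85 gained and 19 reversed. The edgeR exact test gave 311 calls at 24 h.

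The 24 pairs of libraries with the same number had correlations of deviations between -0.605 and 0.82, and 12 exceeded 0.1, so the numbers were not taken as pairing the samples. The 4 such pairs of IvF at 24 h with IvF at 1 h all exceeded 0.1 (0.269 to 0.82), while the 4 of IvS at 24 h with IvS at 1 h were all negative (-0.42 to -0.304). The comparisons of 24 h with 1 h within IvF and within IvS had no block. A replicate block gave 396 interaction calls, 303 at 24 h, 107 kept and 17 reversed genes.

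Leaving out 1 library, or all libraries of a number, gave 111 to 386 interaction calls (75 to 231 higher, 24 to 212 lower), 88 to 226 at 24 h, 786 to 1373 at 1 h, and 80 to 291 lost, 25 to 77 kept, 24 to 59 gained and 0 to 11 reversed genes. F against S had 4395 calls and 3348 to 5046 without 1 library. The interaction count moved by over 1.5 times without library IF_24hr_181 (195) or library I_1hr_186 (197). Lower calls outnumbered higher ones without IF_1hr_185 (174 higher, 212 lower), against 175 higher and 123 lower with all libraries. The lower calls numbered 65 to 75 without any 1 of I_1hr_181, I_1hr_183, I_1hr_185, I_1hr_186, I_24hr_186, IF_24hr_181 or IF_24hr_185. With 4 libraries per group, changes the size of those in uneven genes such as fmo-5 are estimated with large errors.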
